A study of Homo sapiens with 4 samples.

Results

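The genes described here are a list of 9 TGF-β target genes and bone or lung metastasis genes of breast cancer cells. They are IL11, PTHLH, CCN2, SKIL, JAG1, CXCR4, MMP1, LTBP1 and ANGPTL4, and not each of them need be both. They were chosen by name, and every transcript listed under their symbols was kept. All 9 had at least 1 row, with 28 transcripts in total, among 75165 transcripts of 20298 genes in the whole table. RIP-seq, which sequences the RNA that comes down with a protein in an immunoprecipitation (IP) beside the RNA of the lysate it was taken from (input), was performed in MDA-MB-231 cells, a human triple negative breast cancer line. There were 2 IP libraries, made with anti-Flag antibody from nuclear lysate with 500 μg of protein, and 2 input libraries, made from 50 μg of the same kind of lysate. Every library came from cells that overexpress 3x Flag-tagged YTHDC1 from a lentiviral vector (multiplicity of infection of 4, puromycin at 2 μg/ml for 4 days), and RNA and protein were crosslinked by 3 rounds of UV light at 120000 μJ/cm2. Thus IP and input share the overexpression, and cells without it are not analysed here. No addition of TGF-β to these cells is named in the labels.

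TGF-β binds its receptors at the cell surface, which phosphorylate SMAD2 and SMAD3, and these enter the nucleus with SMAD4 to switch on target genes. In breast cancer cells, some of these targets act outside the cell on bone or blood vessels, others on the matrix, and others feed back on the pathway itself. YTHDC1 is a nuclear protein that binds RNA carrying N6-methyladenosine and has been linked to splicing and to export of mRNA from the nucleus. By the protocol both IP and input came from nuclear lysate, although the input is labelled as total RNA.

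The value given for each transcript is the authors' mean normalized count, a mean over the IP and input libraries pooled. It shows how many reads were assigned to a transcript in the pooled libraries. It does not show whether the transcript was higher in the IP or in the input, so no enrichment is given for any gene. No library has a value of its own, how deeply each was sequenced is unknown, and no SD, interval or test can be given for any value below. The sum over a gene's transcripts is termed the gene total. Gene totals count reads and were not divided by transcript length, so their order is an order of reads and not of RNA molecules.

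The gene totals of the 9 genes spanned 1572-fold, from 6.84 for PTHLH to 10752 for JAG1. JAG1 and CCN2 together held 76.5% of the 20400 mean normalized counts assigned to the 9 genes. Among the 14050 protein-coding genes the median gene total was 588, with 5 of the 9 genes above it and 4 below. The median of the 9 genes was 638. As a group they were thus spread over the whole range of protein-coding genes.

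**Figure D1:**
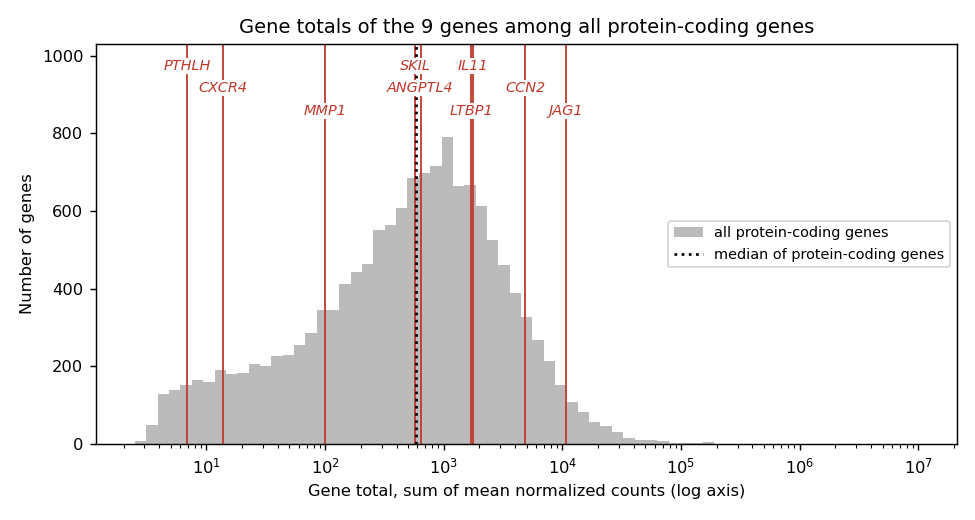
Gene totals on a log axis, in mean normalized counts summed over transcripts, with the number of protein-coding genes in each bin in grey, the 9 genes as red lines and the median of protein-coding genes as a dotted line. SKIL and ANGPTL4 lie beside the median of 588, JAG1 and CCN2 lie in the upper part, and CXCR4 and PTHLH lie near the low end of the table.

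The promoters of these genes were searched for short motifs of the factors that carry TGF-β and related signals to DNA. The genes were grouped by their regulation or role in metastasis and not by their RNA sequence. Promoters were taken from RefSeq (GRCh38.p14), from 250 bases before to 50 bases after each start, and 8 of the 9 genes matched, with 12 start sites. MMP1 had no entry. The SMAD box was searched as CAGAC on both strands. It was present in 10 of the 12 promoters, and 45.3% of all 35116 promoters held it. Each of the 8 genes had it in at least 1 promoter, but no share per gene was computed over all genes. A match of so few letters is a description and not a binding site. Of the 3 promoters each of LTBP1 and CXCR4, 2 overlap each other, and start sites of 1 gene do not count as independent. The match nearest to the start is shown for each gene, to let the surroundings of the shared letters be compared, read 5′ to 3′ on the strand of the gene with the SMAD box or its reverse complement GTCTG in capitals.
IL11, chr19:55370571-55370600, minus strand: ggcagccgctccGTCTGaatggaaaaggca
PTHLH, chr12:27970002-27970031, minus strand: agaggaggtagaCAGACagctatgtatata
CCN2, chr6:131951532-131951561, minus strand: tgccagctttttCAGACggaggaatgctga
SKIL, chr3:170357596-170357625, plus strand: gacggcggcggcGTCTGcgggaagctgtgt
JAG1, chr20:10673983-10674012, minus strand: ggccgctgctgcCAGACgggctctccgggt
CXCR4, chr2:136118237-136118266, minus strand: ctccttcctcgcGTCTGcccctctccccca
LTBP1, chr2:32946880-32946909, plus strand: ttggctgctcagGTCTGacactcggggcca
ANGPTL4, chr19:8364004-8364033, plus strand: tcccccagcccgCAGACtaccaggcctcca

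The matches lay from 177 bases before the start in CCN2 to the start itself in JAG1. The bases around them differed from gene to gene. The AP-1 site, searched as TGAGTCA on both strands, was found in IL11 alone of the 8 genes with a promoter. MMP1 could not be searched. Of all promoters, 4.95% held this site. In IL11 it begins 96 bases before the start, close to the SMAD box.
IL11, chr19:55370541-55370570, minus strand: ggcagggagggTGAGTCAggatgtgtcagg
The TEAD site, the motif of the factors that YAP and TAZ act through, was searched as GGAATG on both strands. Of the same 8 genes it was found in CCN2 alone, with 3 matches. Of all promoters, 14.0% held at least 1. The first match overlaps the window of the SMAD box shown above, and the other two lie close together.
CCN2, chr6:131951459-131951488, minus strand: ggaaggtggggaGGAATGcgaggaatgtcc
RIP-seq does not measure promoters, and no read of this experiment bears on these sites. The median GC content was 63.3% in the 12 promoters and 58.7% in all promoters.

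JAG1, a ligand of the Notch receptors that breast cancer cells can present to bone cells, had the highest gene total of the 9 genes, at 10752 (ENSG00000101384.12, chr20:10637684-10673999 in GRCh38.p14). It was above 97.2% of protein-coding genes. Its 5 listed transcripts differed widely. JAG1-201, annotated as protein-coding, had a mean normalized count of 9956 and made up 92.6% of the gene total. JAG1-202, a processed transcript without an annotated reading frame, followed at 707, which was 14.1-fold lower. The retained-intron transcripts JAG1-207 and JAG1-203 had 56.1 and 27.0, and together made up 0.772% of the gene total. The other protein-coding transcript, JAG1-205, had 6.13. Nearly all JAG1 reads in the pooled libraries were therefore assigned to 1 coding transcript.

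Among the 1496 genes with 5 listed transcripts, the largest transcript made up a median of 55.6% of the gene total. The share of JAG1-201 was above that of 95.5% of these genes. For SKIL and LTBP1, which also have 5 listed transcripts, the shares were 60.9% and 49.6%. The 3 genes thus lay on both sides of that median.

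CCN2, also known as CTGF, encodes a secreted protein of the extracellular matrix and had the next highest gene total. Its single listed transcript, CCN2-201 (ENSG00000118523.6, chr6:131948176-131951372), had a mean normalized count of 4854. This was above 91.3% of protein-coding genes and 2.21-fold below JAG1. No other transcript of the gene was listed, so there was no isoform among which its reads could be divided. A single listed transcript was found for 18.3% of protein-coding genes.

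**Figure D2:**
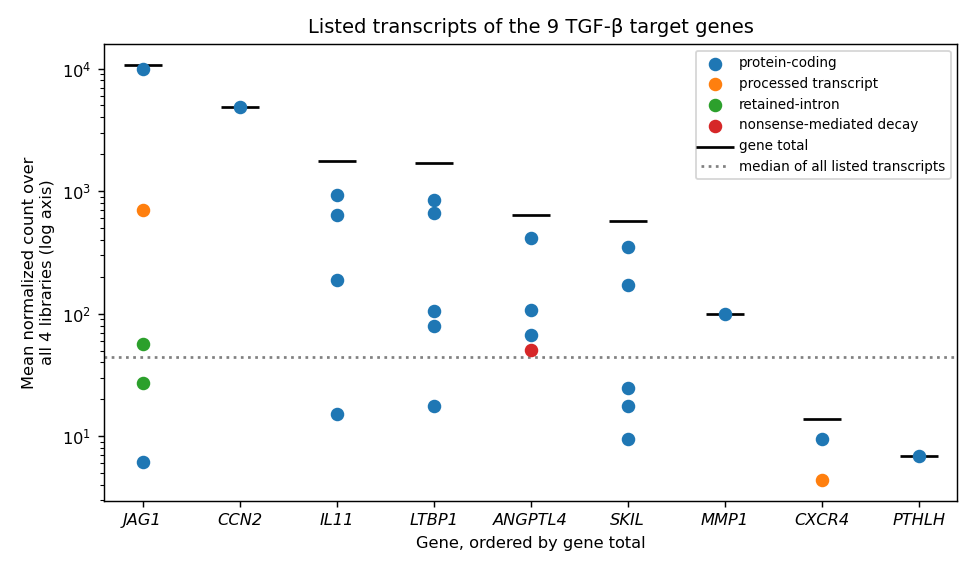
Mean normalized count over all 4 libraries, on a log axis, of each listed transcript (points, colored by annotated type) and of each gene in sum (black bars), with the median of all listed transcripts as a dotted line. Of the 28 transcripts, 18 lie above the median of 44.2, and 5 lie below 10, namely both CXCR4 transcripts, the PTHLH transcript, JAG1-205 and SKIL-201. These 5 are 17.9% of the 28, close to the 17.2% of all listed transcripts that lie below 10.

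IL11 and PTHLH encode secreted factors that are known to promote bone resorption. IL11 is a cytokine of the interleukin 6 family, and its RNA was measured in the study as a readout of TGF-β treatment. Its gene total was 1759 (ENSG00000095752.7, chr19:55364382-55370463), above 75.2% of protein-coding genes. All 4 listed transcripts are annotated as protein-coding. IL11-201 had a mean normalized count of 922, IL11-202 had 635, IL11-203 had 187 and IL11-204 had 15.3. IL11-201 and IL11-202 were close, with a ratio of 1.45, and together made up 88.5% of the gene total. IL11-201 alone held 52.4%, against a median largest share of 60.2% in the 1781 genes with 4 listed transcripts. The reads of IL11 were thus divided between a pair of coding transcripts.

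PTHLH encodes parathyroid hormone-related protein, which acts on osteoblasts through the receptor PTH1R. It had the lowest gene total of the 9 genes (ENSG00000087494.16, chr12:27958084-27972733). The only listed transcript was PTHLH-208, with a mean normalized count of 6.84. The transcript numbers 201 to 207 of this gene had no row. The lowest mean normalized count in the table is 2.72, and 8.93% of all transcripts lay below PTHLH-208. At this level few reads stand behind the value, so PTHLH was listed but close to the lower limit of the table. IL11 and PTHLH, described together here, therefore stood far apart in reads.

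CXCR4 is the receptor for the chemokine CXCL12 and guides cells toward tissues that produce it. Its gene total was 13.8 (ENSG00000121966.7, chr2:136114349-136118149), above 6.75% of protein-coding genes. CXCR4-201, annotated as protein-coding, had a mean normalized count of 9.44, and the processed transcript CXCR4-203 had 4.39. The processed transcript thus made up 31.7% of the gene total, the highest share of other than protein-coding types in the 9 genes. At so low a level this division rests on few reads. CXCL12, the ligand, had no row, and ACKR3, the other receptor of this ligand, had a gene total of 28.5.

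MMP1 encodes a collagenase that cuts fibrillar collagen. Its single listed transcript, MMP1-201 (ENSG00000196611.5, chr11:102789919-102798160), had a mean normalized count of 99.7, above 21.4% of protein-coding genes. It was 5.74-fold below SKIL, the next higher gene of the group, and 7.20-fold above CXCR4. Of the other matrix metalloproteinases looked up, MMP14 had a gene total of 16020 and MMP9 had 8.21, and MMP2, MMP3 and MMP13 had no row. Thus MMP1 lay between the membrane-bound MMP14 and MMP9 in reads.

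LTBP1 and SKIL act on the TGF-β pathway itself. LTBP1 binds latent TGF-β and anchors it in the matrix. Its gene total was 1705 (ENSG00000049323.16, chr2:32946953-33399509), above 74.6% of protein-coding genes and only 1.03-fold below IL11. Its 5 listed transcripts are all annotated as protein-coding. LTBP1-202 had a mean normalized count of 845 and LTBP1-203 had 657, and together they made up 88.1% of the gene total. LTBP1-208 had 105, LTBP1-207 had 79.4 and LTBP1-209 had 17.8. LTBP1-201 had no row, nor had the numbers 204, 205 and 206. No transcript of LTBP1 thus held more than 49.6% of the gene total, the lowest largest share of the 9 genes.

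SKIL encodes SnoN, a repressor that binds SMAD proteins and is itself induced by TGF-β, which makes it part of a feedback. Its gene total was 572 (ENSG00000136603.14, chr3:170357715-170396849), above 49.5% of protein-coding genes. All 5 listed transcripts are annotated as protein-coding. SKIL-203 had a mean normalized count of 348 and SKIL-207 had 172, and together they held 90.9% of the gene total. SKIL-202 had 24.8, SKIL-204 had 17.8 and SKIL-201 had 9.42. The transcript with the lowest number, SKIL-201, was therefore 37.0-fold below SKIL-203. In JAG1, IL11, ANGPTL4 and CXCR4, by contrast, number 201 had the highest mean normalized count. The relative SKI, a repressor of the same family, had a gene total of 7275.

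ANGPTL4 encodes a secreted protein that inhibits lipoprotein lipase and can loosen contacts between endothelial cells, and it is known for its role in lung metastasis. Its gene total was 638 (ENSG00000167772.12, chr19:8364155-8374370), above 51.8% of protein-coding genes and 1.11-fold above SKIL. ANGPTL4-201 had a mean normalized count of 413, ANGPTL4-205 had 107 and ANGPTL4-202 had 67.0, all annotated as protein-coding. ANGPTL4-203, annotated as a target of nonsense-mediated decay, had 50.2 and made up 7.88% of the gene total. The largest share, 64.8% for ANGPTL4-201, lay near the median of 60.2% in genes with 4 listed transcripts.

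**Figure D3:**
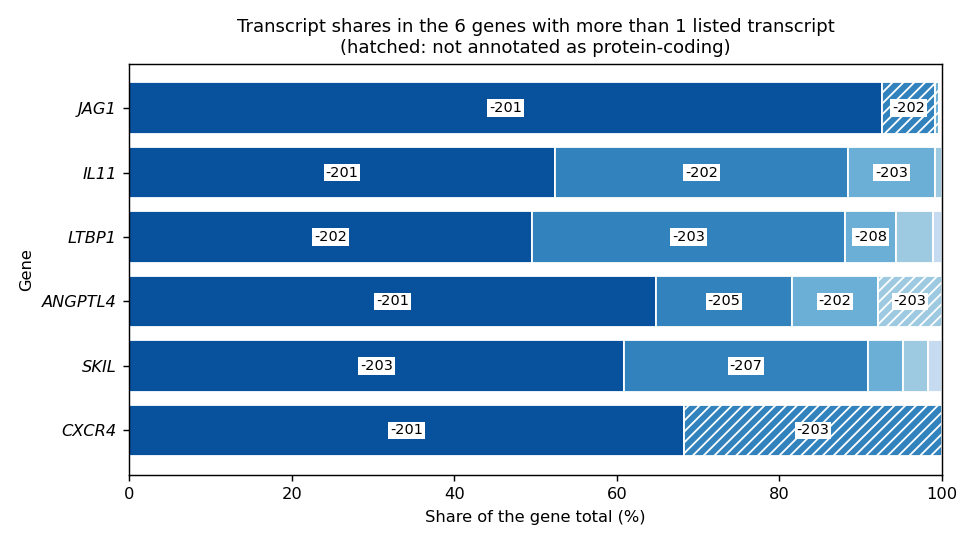
Share of the gene total held by each listed transcript, in percent, for the 6 genes with more than 1 listed transcript, with transcript numbers on the larger segments and hatching for types other than protein-coding. JAG1 is held almost wholly by number 201, while LTBP1 and IL11 are each divided mainly between a pair of coding transcripts.

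By annotated type, 23 of the 28 transcripts were protein-coding, 2 were processed transcripts, 2 were retained-intron transcripts and 1 was a target of nonsense-mediated decay. Protein-coding transcripts were thus 82.1% of those listed, against 59.6% over all protein-coding genes. In 6 of the 9 genes every listed transcript was protein-coding, and the other types were found in JAG1, CXCR4 and ANGPTL4. Of these 6 genes, CCN2, MMP1 and PTHLH have only 1 listed transcript. How many of all protein-coding genes list coding transcripts alone was not computed. Protein-coding transcripts held 95.9% of the counts of the 9 genes, against 87.6% over all protein-coding genes. Retained-intron transcripts held 0.407%, against 4.16% over all protein-coding genes. JAG1, which had the highest gene total, held 52.7% of the counts of the 9 genes. Its own share was 92.7% for protein-coding and 0.772% for retained-intron transcripts. No test was run on these shares. RSEM divides reads that fit several transcripts of a gene by a statistical estimate, so shares of overlapping transcripts within a gene are estimates, whereas the gene total depends less on this division.

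The order of the gene totals was JAG1, CCN2, IL11, LTBP1, ANGPTL4, SKIL, MMP1, CXCR4 and PTHLH. Since no replicate value is given, it cannot be said which neighbours differ beyond the spread between libraries. The order is that of the pooled values, and the order within the IP or within the input may differ. The closest neighbours were IL11 and LTBP1, with a ratio of 1.03, and ANGPTL4 and SKIL, with a ratio of 1.11.

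Genes that pass on the TGF-β signal were looked up by name. What share of all protein-coding genes has a row was not computed. The counts of genes with a row, here and below, are therefore only a description. All 3 TGF-β ligands, all 3 receptors and all 4 SMADs looked up had rows. TGFB1 had a gene total of 5102 and TGFB3, the lowest ligand, had 107. Among the receptors TGFBR2 was highest at 5732 and TGFBR3 lowest at 918. SMAD3 had 10590, close to JAG1, whereas SMAD4, the common partner of SMAD2 and SMAD3, had 565, close to SKIL. Of 8 other TGF-β targets, all had rows, from 139 for SNAI1, a transcription factor of epithelial to mesenchymal transition, to 16414 for FN1, the gene of fibronectin, and 5 of them lay above the median protein-coding gene. Among the 9 genes described here 5 did so too.

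Among receptors and ligands with which the 9 genes' products act, 8 of 9 had rows. The Notch receptors bound by JAG1 ranged from 46.2 for NOTCH4 to 25501 for NOTCH2. For IL11, the receptor subunit IL11RA had 110 and the shared signal transducer IL6ST had 4770. PTH1R, the receptor of the PTHLH product, had the lowest gene total of this list, at 28.4. NOTCH1 had 6379 and NOTCH3 had 117, so of the Notch receptors NOTCH1 and NOTCH2 lay above the median protein-coding gene and NOTCH3 and NOTCH4 below it. PTH1R was above 26.3% of all listed genes, and PTHLH was above 7.48% of them.

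**Figure D4:**
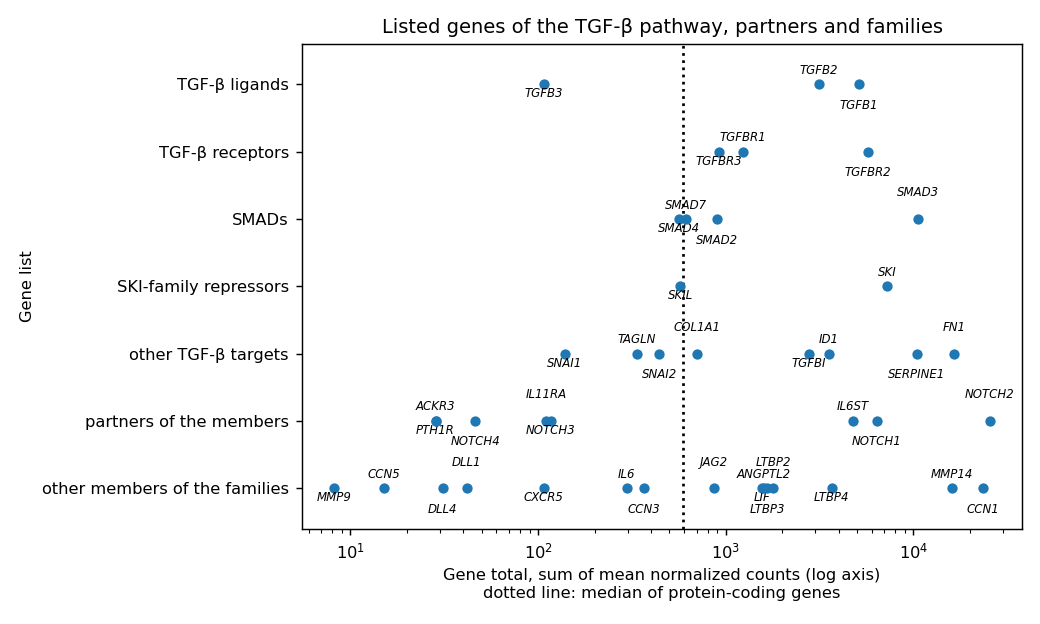
Gene totals, on a log axis, of the listed genes of the TGF-β pathway, of receptors and ligands that act with the 9 genes, and of other members of their families, with the median of protein-coding genes as a dotted line. NOTCH2 at 25501 and CCN1 at 23367 lie at the upper end, and MMP9 at 8.21 lies at the lower end.

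The cells were checked against their label. ESR1 and PGR, the hormone receptor genes that triple negative cells lack, had no row, and CDH1, the gene of E-cadherin, had a gene total of 10.0. ERBB2 had 4303. Of 5 mesenchymal markers, 4 lay between 14306 and 80785, and SPARC had 11.4. Of the luminal and epithelial genes looked up, KRT8 and KRT18, keratins of luminal cells, had 31132 and 27123, GATA3 had 584 and EPCAM had 78.3. GATA3 lay beside the median protein-coding gene, at 588, and EPCAM lay below it. Of the 6 luminal and epithelial genes with a row, 3 lay above that median, namely ERBB2, KRT8 and KRT18. YTHDC1, which the vector overexpresses, had 55488, above 99.8% of all listed genes, and RNA of the vector and of the cell's own gene cannot be told apart in this value.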

How the data were processed

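RIP-seq was analysed from 2 Flag-YTHDC1 IP and 2 input libraries of MDA-MB-231 cells, grouped by their sample titles. Nothing beyond the series' own wording of biological replicates describes how the replicates were kept apart. Per the submitters' processing notes, reads were mapped with STAR (version 2.7.2b) and quantified per transcript with RSEM (version 1.2.31) on GRCh38. The authors used GENCODE annotations, removed transcripts with few reads, corrected batch effects with RUVSeq and applied DESeq2.

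The deposited table holds 1 signal column that was used, the authors' mean of the normalized counts per transcript, in which IP and input are pooled. Its other numeric columns hold the authors' own comparison (log2 fold change, its standard error, p-value and adjusted p-value) and were not used. The authors' comparison was left out by choice, so IP against input is not reported here. No column holds the value of a library, so no test of that comparison could be run anew, and depth and precision per library are unknown.

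Rows were selected by gene symbol. The name table supplied with the reference held all 9 gene identifiers. Gene totals are sums over transcripts by gene identifier. Coordinates and promoters are from RefSeq (GRCh38.p14), and transcript lengths and exons were not used here. Computations were run in python (3.11.15) with pandas (2.3.3), numpy (2.4.6) and matplotlib (3.10.9). The steps for the gene total, the largest share and the percent of genes with a lower total were tested on simulated data. The other steps, such as the motif search, were not. The members, lists and motifs were chosen with earlier results of these data known. The genes named are the 9 members with every transcript, YTHDC1, and the highest, the lowest and the unlisted genes of each list, of which 1 is not reported here. Other genes were named after their values were seen. The alternatives were a minimum of 10 or of 100 mean normalized counts per transcript, the use of protein-coding transcripts alone, the most abundant transcript alone and matching by gene identifier. The most abundant transcript is here that with the highest mean normalized count in its gene.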

Additional observations from a re-analysis of the deposited data

How the results depend on the processing

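When 100 or more mean normalized counts were required, 13 of the 28 transcripts were left, and when 10 or more were required 23 were left. Matching by gene identifier gave the same 28. The order of the 9 gene totals was the same with protein-coding transcripts alone and with the most abundant transcript alone. With a minimum of 10 it was the same for the 7 genes left, without CXCR4 and PTHLH. The totals themselves changed by more than 1.5-fold in 4 of the 9 genes with the most abundant transcript alone. IL11 fell from 1759 to 922, LTBP1 from 1705 to 845, SKIL from 572 to 348 and ANGPTL4 from 638 to 413. The median share of the most abundant transcript was 68.3% over the 9 genes, 99.9% with protein-coding transcripts alone and 64.8% with a minimum of 10. With protein-coding transcripts alone, however, the share stayed the same in 6 of the 9 genes. In the other 3 it rose. CXCR4 was left with 1 transcript and rose from 68.3% to 100%, JAG1 rose from 92.6% to 99.9% and ANGPTL4 from 64.8% to 70.3%. The median thereby moved from CXCR4 to JAG1. The median thus changed far more than the share of most of the 9 genes. The median over the 9 genes of the percent of listed genes with a lower total was 65.5%, and it was 54.2% with protein-coding transcripts alone and 66.8% with the most abundant transcript alone. The first alternative ranks fewer genes, and with it the percent fell for all 9 genes, most for MMP1, from 40.1% to 23.6%. With the most abundant transcript alone it also changed for all 9 genes. Ranking per transcript length was not run, since transcript lengths were not used here. Leaving out a library was not possible with 1 pooled value per transcript. No paired analysis was possible because the table holds no value per library. Values near the lower limit of the table, as for PTHLH and CXCR4, rest on few reads, and the depth behind them is unknown.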

Other observations

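The wider families of the 9 genes were unevenly listed. Of the other family members looked up, 15 had rows, and 8 of these lay above the median protein-coding gene. CCN1, a matrix protein gene of the CCN family, had the highest gene total of this list, at 23367, whereas CCN3 had 368, CCN5 had 15.2, and CCN4 and CCN6 had no row. The relatives of LTBP1 lay in a narrow range, with 1664 for LTBP3, 1792 for LTBP2 and 3669 for LTBP4, against 1705 for LTBP1. Among Notch ligands, JAG2 had 860, DLL1 had 41.6, DLL4 had 31.0 and DLL3 had no row, so JAG1 held most of the reads of this group. The cytokines LIF and IL6, which share the signal transducer IL6ST with IL11, had 1563 and 296. ANGPTL2 had 1599, and ANGPTL1 had no row. Of the other genes with a CXCR symbol that were looked up, CXCR5 alone had a row, at 107, while CXCR1, CXCR2, CXCR3 and CXCR6 had none. PTH and PTH2, the relatives of PTHLH, had none either. These genes were looked up by name, the values are pooled over IP and input. No value can be given for a gene without a row.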
